A study of Homo sapiens with 2 samples.

Results

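The human chromosome 7 transcripts of NCI-N87 gastric carcinoma cells were compared between 1 array of untreated parental cells and 1 array of cells labelled as resistant to T-DM1 that derive from that line. All rows whose identifier places them on chromosome 7 were taken, which gave 3339 of the 70523 rows of the deposited table. Each row is a transcript cluster, the summarised signal of the probes for 1 annotated transcript locus, on an array read in 1 colour with probes for coding and non-coding RNA. T-DM1 (trastuzumab emtansine, spelled TDM-1 in the labels) joins an antibody to the receptor HER2 with a drug that blocks microtubules. The labels give no dose, length of exposure, passage or clone for the resistant line, and do not say whether the drug was present at harvest. There was 1 array per group, so the spread between cultures is unknown, nothing below was tested, and so few arrays limit the precision of each value. The chromosome was chosen because its genes differed between these same arrays, so its shift is a description and not a finding.

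Chromosome 7 carries the receptor tyrosine kinase genes EGFR on its short arm and MET on its long arm, and the long-arm Williams-Beuren interval, a block of genes lost together in the developmental syndrome of that name. Receptors, junction proteins and replication genes of this chromosome are used by epithelial cells, whereas its olfactory and taste receptor genes are used in sensory cells. An RNA level depends on gene copies, transcription and RNA stability together, and the arrays measure RNA only.

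The members include pairs of genes that share a start region and genes that stood far from the rest of the chromosome, and their promoter sequences are shown to make those cases visible. The sequences are the 250 bases before the RefSeq start on assembly GRCh38.p14, written 5′ to 3′ on the gene's own strand. Capitals mark matches, on either strand, to CCAAT (the CCAAT box), GGGCGG (the GC box, bound by SP1-type factors), TATAAA (the TATA box), TTTGAA (the core of the cell cycle homology region) and GGCGGGAA (an E2F-type site). The first 4 are the divergent pairs TMEM60 with PHTF2 and SLC25A40 with DBF4, transcribed away from each other, whose windows overlap on opposite strands.
TMEM60 (chr7:77798435-77798684, minus strand): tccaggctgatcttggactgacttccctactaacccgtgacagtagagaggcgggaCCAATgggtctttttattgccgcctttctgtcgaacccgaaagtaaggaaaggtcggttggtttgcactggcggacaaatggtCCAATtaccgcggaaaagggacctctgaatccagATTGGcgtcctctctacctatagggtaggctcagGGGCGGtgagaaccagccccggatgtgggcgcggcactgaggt
PHTF2 (chr7:77798523-77798772, plus strand): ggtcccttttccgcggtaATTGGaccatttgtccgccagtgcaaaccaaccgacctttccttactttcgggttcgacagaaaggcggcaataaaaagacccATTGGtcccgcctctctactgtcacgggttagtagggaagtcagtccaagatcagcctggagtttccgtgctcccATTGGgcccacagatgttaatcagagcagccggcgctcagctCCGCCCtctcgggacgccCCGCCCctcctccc
SLC25A40 (chr7:87876361-87876610, minus strand): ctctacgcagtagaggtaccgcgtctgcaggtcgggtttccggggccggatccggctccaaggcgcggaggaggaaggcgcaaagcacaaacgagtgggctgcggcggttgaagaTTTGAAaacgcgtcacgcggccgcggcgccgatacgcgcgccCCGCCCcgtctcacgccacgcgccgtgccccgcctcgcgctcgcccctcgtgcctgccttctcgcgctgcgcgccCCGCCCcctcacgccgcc
DBF4 (chr7:87876243-87876492, plus strand): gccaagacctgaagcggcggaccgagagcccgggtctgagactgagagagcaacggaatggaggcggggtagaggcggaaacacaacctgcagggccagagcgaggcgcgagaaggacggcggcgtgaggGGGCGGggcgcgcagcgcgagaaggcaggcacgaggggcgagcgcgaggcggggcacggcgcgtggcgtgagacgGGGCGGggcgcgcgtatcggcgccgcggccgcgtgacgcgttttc
The next 2 belong to cell division genes far above the chromosome's median.
ANLN (chr7:36389612-36389861, plus strand): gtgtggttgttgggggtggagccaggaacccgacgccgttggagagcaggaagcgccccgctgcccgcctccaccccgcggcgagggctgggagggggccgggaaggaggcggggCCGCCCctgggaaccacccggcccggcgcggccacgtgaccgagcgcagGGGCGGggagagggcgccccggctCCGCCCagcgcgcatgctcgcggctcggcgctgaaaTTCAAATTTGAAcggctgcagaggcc
NCAPG2 (chr7:158704805-158705054, minus strand): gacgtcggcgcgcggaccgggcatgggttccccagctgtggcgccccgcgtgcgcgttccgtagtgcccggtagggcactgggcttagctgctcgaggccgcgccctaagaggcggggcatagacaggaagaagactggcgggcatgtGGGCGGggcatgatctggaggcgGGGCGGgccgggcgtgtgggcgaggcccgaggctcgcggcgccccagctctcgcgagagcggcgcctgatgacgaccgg
The last 3 are the neighbouring claudin genes CLDN3 and CLDN4, which differed from each other, and AGMO, the gene lowest on the chromosome.
CLDN3 (chr7:73770271-73770520, minus strand): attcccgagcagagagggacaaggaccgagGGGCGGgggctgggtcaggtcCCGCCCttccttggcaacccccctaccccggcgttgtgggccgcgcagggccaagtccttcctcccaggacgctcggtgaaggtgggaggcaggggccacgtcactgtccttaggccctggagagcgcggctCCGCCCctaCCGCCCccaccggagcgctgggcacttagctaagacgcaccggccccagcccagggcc
CLDN4 (chr7:73830746-73830995, plus strand): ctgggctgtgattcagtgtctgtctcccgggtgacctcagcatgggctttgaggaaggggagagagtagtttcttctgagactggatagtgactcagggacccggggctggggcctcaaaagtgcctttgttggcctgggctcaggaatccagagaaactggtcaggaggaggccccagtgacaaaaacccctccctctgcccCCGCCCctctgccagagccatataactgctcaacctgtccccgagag
AGMO (chr7:15562016-15562265, minus strand): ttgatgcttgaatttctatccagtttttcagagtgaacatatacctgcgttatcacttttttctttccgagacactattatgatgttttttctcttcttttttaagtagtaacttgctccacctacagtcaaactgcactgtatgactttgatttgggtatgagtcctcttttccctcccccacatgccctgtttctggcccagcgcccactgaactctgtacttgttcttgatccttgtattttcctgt
TMEM60 carried 3 CCAAT matches and PHTF2 also 3, while neither SLC25A40 nor DBF4 had one in this window. Because the TMEM60 and PHTF2 windows overlap, some of their matches are the same sites read on opposite strands. The ANLN window held a TTCAAA and a TTTGAA side by side, the former 26 and the latter 20 bases before the start, beside 3 GC boxes. None of the 5 motifs was found in the AGMO window, which had a GC content of 40.4% and 3 CG dinucleotides, against 75.2% and 30 for ANLN. Over the 27305 promoters of the table, cut to the same length, 33.0% held CCAAT, 42.3% GGGCGG, 11.1% TATAAA, 13.6% TTTGAA and 2.77% GGCGGGAA. A match describes these letters only.

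Of the 3339 rows, 1064 carried 1 gene symbol, 83 carried several and 2192 are unnamed here. The values are on the deposited log2 scale, and differences were taken as resistant minus parental. A floor of 5.79 was used, the median over all 22411 genes of the higher of a gene's values, and a row counted as at or above the floor when its higher value reached it. A row was called higher or lower when it was at or above the floor and its difference was at least 1 in size. This floor is a convention chosen here; it does not mark detection. On this chromosome, 1204 rows (36.1%) reached the floor, among them 450 of the 764 protein-coding genes. The epithelial identity of the cells was visible on both arrays: all 6 epithelial markers lay at or above the floor, while none of 5 measured stromal markers and 2 of 4 immune markers did.

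The 450 coding genes that reached the floor had a median difference of 0.62, with quartiles of 0.21 and 1.01. Of these, 377 were above 0, 71 below and 2 at 0. The 9378 such genes on other chromosomes had a median of 0, with quartiles of -0.42 and 0.42, and 50.0% lay above 0. On chromosome 7, 114 genes were called higher and 13 lower, which is 25.3% and 2.89%. Over all 9828 coding genes that reached the floor, 10.5% were called higher and 9.4% lower. The chromosome was chosen on this contrast, so nothing is read from the gap. Among 23 chromosomes, chromosome 7 had the highest median and the highest share above 0. Chromosome 3 followed with 0.22, and chromosome 13 had the lowest median, -1.09.

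**Figure D1:**
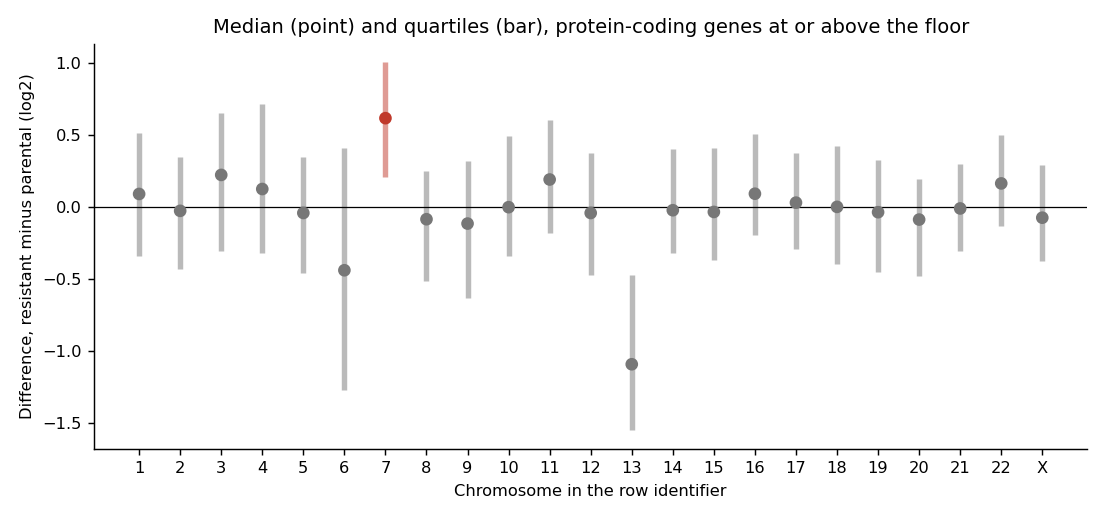
Median (point) and quartiles (bar) of the difference, resistant minus parental in log2 units, for coding genes that reached the floor on each chromosome. Chromosome 7, in red, has a median of 0.62 and a lower quartile of 0.21, above the 0 line.

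The shift was seen mostly in rows with signal above the floor. The 2135 chromosome 7 rows under the floor had a median difference of 0.06, and the 1204 rows at or above it 0.32. Among protein-coding genes the median was 0.04 at mean levels from 4 to 5, 0.54 from 6 to 8, 0.74 from 8 to 10 and 0.82 from 10 to 12. From 12 upwards the median of 29 genes was 0.45. Protein-coding genes of the other chromosomes had medians between -0.09 and 0.05 in the same classes. The 84 chromosome 7 genes below a mean level of 4 had a median of 0.06.

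**Figure D2:**
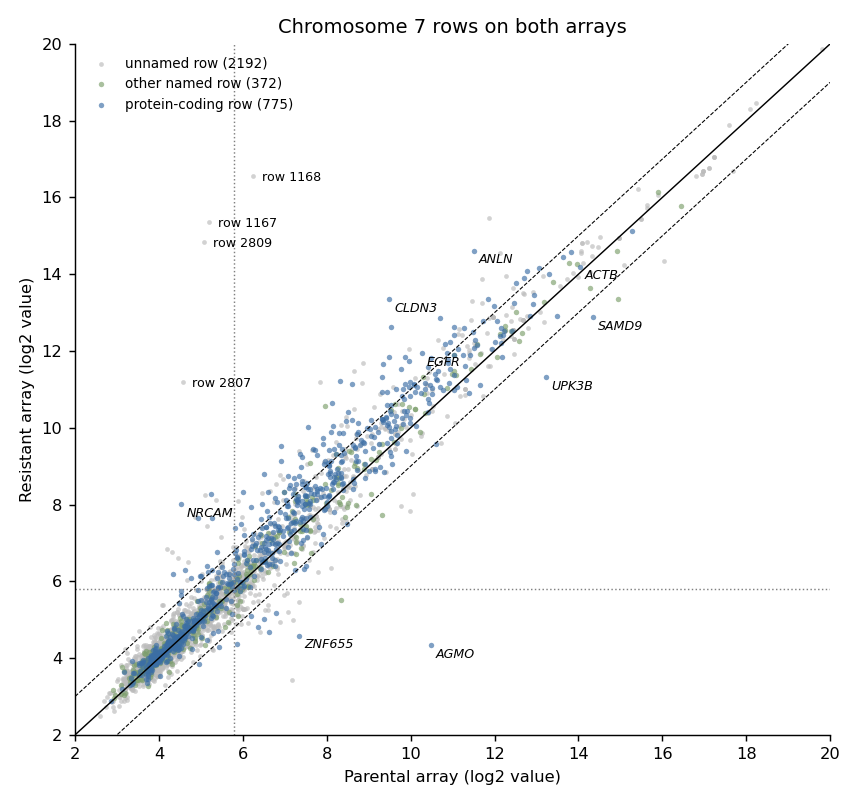
Value of each chromosome 7 row on the parental array (x axis) and the resistant array (y axis), both in log2 units, with the line of equality, dashed lines at a difference of 1 in size and dotted lines at the floor of 5.79. Most protein-coding rows above the floor lie above the line of equality, while unnamed rows 1167, 1168, 2807 and 2809 stand far above it and AGMO far below.

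Both arms were shifted. The 153 short-arm genes had a median of 0.52 with quartiles of 0.16 and 1.02; 40 were called higher and 3 lower. The 297 long-arm genes had a median of 0.64 with quartiles of 0.27 and 0.98, and 74 were called higher and 10 lower. Whether the arms differ was not tested. Over a running window of 15 genes, all 139 short-arm windows and 282 of 283 long-arm windows had a median above 0. This depends on the settings: the lowest short-arm window was -0.10 without a floor and -0.15 with windows of 9 genes, and the lowest long-arm window was 0.01 after quantile normalization.

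The highest short-arm window, with a median of 1.03, ran from NUDCD3 to DDC and held 8 genes with a difference of at least 1. The lowest, at 0.15, ran from HERPUD2 to STK17A. It contained ANLN at 3.11 and its direct neighbour MATCAP2 at 1.57, both called higher. On the long arm the highest window ran from DENND11 to PDIA4 with a median of 1.10, and the lowest from SAMD9 to BRI3 with a median of -0.03. That last window, with 7 of 15 genes above 0, was the single one within either arm not above 0. It includes SAMD9, which was called lower, and SLC25A13, which encodes a mitochondrial aspartate-glutamate carrier and was called higher. This window rests on the row kept for BRI3, at -0.10 (7.97 and 7.87). The other row of BRI3, of lower level, was at 0.23 (6.59 and 6.82). Windows were not taken with that row.

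**Figure D3:**
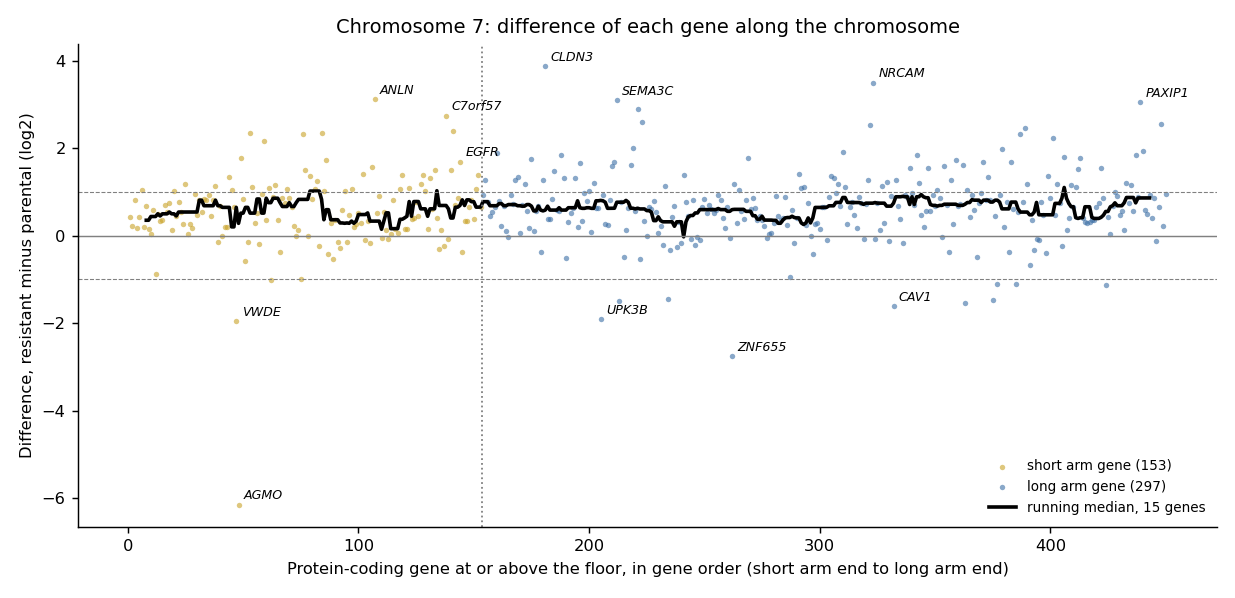
Difference (log2, y axis) of each of the 450 coding genes that reached the floor in gene order (x axis), short arm in yellow and long arm in blue, with the running median of 15 genes in black and dashed lines at a difference of 1 in size. The line is drawn across both arms. With windows kept within each arm, the median stays above 0 in all windows but 1. Single genes reach from -6.15 (AGMO) to 3.88 (CLDN3).

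Genes with a difference above 0 formed long runs in gene order, broken by single genes or short stretches. As 83.8% of the 450 genes lay above 0, nothing about position is read from the length of these runs. Runs, windows and adjacent pairs are counted over genes that reached the floor, so genes under it can lie between their members. The longest such run held 26 genes from PSMG3 to INTS15 near the short-arm end, with differences from 0.03 to 1.18. It includes ACTB, the gene of cytoplasmic beta-actin, at 14.03 in parental and 14.19 in resistant cells, a difference of 0.16. RAC1, the gene of a small GTPase that drives actin protrusion, lies in the same run at 12.15 and 12.60. Further runs of 21 genes went from C7orf25 to CCM2 and from KCNH2 to UBE3C. The longest run below 0 was 3 genes, which occurred at BHLHA15 to BRI3 and at RAB19 to ADCK2. The former also rests on the row kept for BRI3, whose other row was at 0.23.

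Called genes were scattered among uncalled ones. No run of 4 or more consecutive called genes was found; 6 runs held 3 genes called higher and 17 held 2. The runs of 3 were AP1S1 to ZNHIT1, CUL1 to PDIA4, DLD to NRCAM, TMEM60 to SEMA3C, HIBADH to CREB5 and NUDCD3 to DDX56. In the run of CUL1, EZH2 and PDIA4, EZH2, which encodes the histone H3 lysine methyltransferase of the Polycomb complex, was 7.76 in parental and 9.29 in resistant cells, a difference of 1.53. CUL1, the scaffold of SCF ubiquitin ligases, was 9.96 and 11.06, and PDIA4, a protein disulfide isomerase of the endoplasmic reticulum, was 9.97 and 11.73. All 3 values were higher on the resistant array by at least 1.10. The only run of genes called lower was the pair VWDE and AGMO.

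Neighbouring genes did not share the size of their difference, apart from a modest likeness among pairs that share a start region. Over 448 adjacent pairs the median gap between the differences of both members was 0.62, which is also the median gap over all 101025 pairs of genes of the chromosome. Across these pairs r was 0.03 (Pearson) and rho 0.02 (Spearman), given as a description, since genes share the same arrays and are not independent. The 155 same-strand pairs had r = 0.01 and the 90 convergent pairs r = 0.02. In the 21 divergent pairs whose starts lie within 1000 bases the median gap was 0.40, r was 0.46 and rho 0.35. Both members had the same sign, above 0, in each of the 21 pairs, against the same sign in 322 of all 448. Of the 450 genes, 83.8% lay above 0, so a shared sign is frequent in any pairing.

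**Figure D4:**
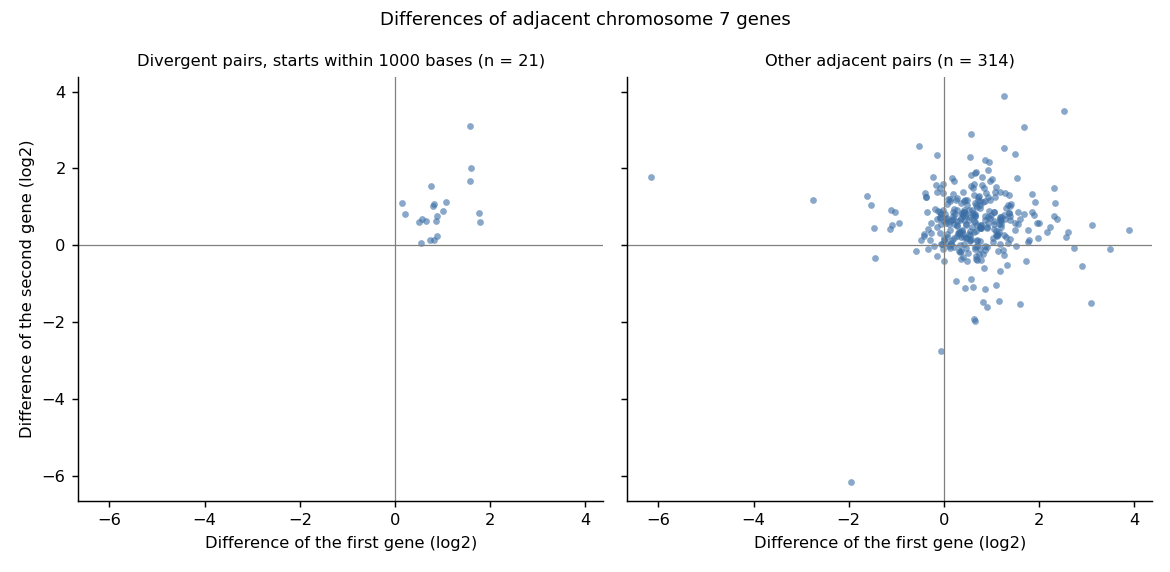
Difference (log2) of the first gene (x axis) and the second gene (y axis) of adjacent chromosome 7 genes, with 21 divergent pairs whose starts lie within 1000 bases on the left and 314 other pairs of known strand on the right. All 21 divergent pairs lie to the upper right of the 0 lines, while some of the other pairs do not.

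The pair TMEM60 and PHTF2, shown above, starts 339 bases apart. TMEM60, a membrane protein gene, was 7.40 in parental and 8.98 in resistant cells, a difference of 1.58. PHTF2, a membrane protein gene named as a putative homeodomain factor, was 7.07 and 8.75, a difference of 1.68. SLC25A40, a mitochondrial carrier of glutathione, and DBF4, the activating subunit of the CDC7 replication kinase, start 133 bases apart. SLC25A40 was 8.59 and 10.20, and DBF4 was 9.31 and 11.31, with differences of 1.60 and 2.01. Both members of these pairs were called higher, at similar sizes. In other pairs the members were less alike. MCM7, a subunit of the replicative helicase, differed by 1.78 (9.76 and 11.54). AP4M1, an adaptor complex subunit whose start lies 246 bases away, differed by 0.60 (7.20 and 7.80). MATCAP2 and ANLN, whose starts lie 495 bases apart, were both called higher but differed by 1.57 and 3.11.

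Genes of DNA replication and cell division come first. Of the 22 genes of this list, all were measured, 19 reached the floor, 12 were called higher and 1 lower. The list is broad, and NUP205 below is a nuclear pore gene. CDK5, at 1.005, only just passed the size rule. The median was 1.15 among the 19 at or above the floor and 1.06 over all measured. ANLN encodes anillin, which holds the contractile ring of dividing cells, and was 11.50 in parental and 14.62 in resistant cells, a difference of 3.11. NCAPG2, a subunit of condensin II that compacts mitotic chromosomes, was 8.59 and 11.15, and NUP205, a nuclear pore scaffold gene, differed by 1.97 (9.87 and 11.84). CDK6, the cyclin D-dependent kinase gene, was 9.05 and 10.20, a difference of 1.15. XRCC2 and FIGNL1, both of homologous recombination and chosen after their values were seen, differed by 1.84 and 1.49. The one gene called lower was CDCA7L, a relative of the MYC target CDCA7, at 10.61 and 9.59, a difference of -1.02 that became -0.99 after quantile normalization and -0.997 after loess centring and so lost the call. All 450 genes had 25.3% called higher, and the list was drawn up with earlier results known, so its count is a description.

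Metabolic and mitochondrial genes form the next lists. Of 24 measured metabolic enzyme genes, 21 reached the floor and 9 were called higher (42.9%) and none lower (median 0.79). GUSB, which encodes the lysosomal enzyme beta-glucuronidase and often serves as a reference gene in PCR, was 8.51 in parental and 10.40 in resistant cells, a 3.71-fold difference. INSIG1, which retains the sterol sensor complex in the endoplasmic reticulum, was 7.37 and 9.31. GSTK1, a glutathione transferase gene, was 6.91 and 9.14. DDC, the decarboxylase that makes dopamine and serotonin, was 5.26 and 7.64, at least 3.61-fold higher against the floor. In 23 measured mitochondrial genes, all at or above the floor, 7 were called higher and none lower (median 0.76), and the share called higher, 30.4%, is near the 25.3% over all 450 genes. CYCS, the gene of cytochrome c, was 11.84 and 13.35, and HIBADH, an enzyme of valine breakdown, 9.48 and 11.84. Both were called higher, with differences of 1.5 and 2.36.

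Chromatin, RNA and protein-handling genes are given next. Of 16 chromatin genes at or above the floor 6 were called higher (37.5%), with a median of 0.75; TRIM24, a bromodomain co-regulator, differed by 1.69 (7.73 and 9.42). Of 26 genes of RNA processing and translation 3 were called higher (11.5%), with a median of 0.59; PUS7, a pseudouridine synthase gene, differed by 1.91 (8.14 and 10.05). The proteasome and chaperone genes had 4 of 12 called higher (33.3%) and a median of 0.53, and PSMC2, a base ATPase of the proteasome, was 12.79 and 14.09. Zinc finger genes, 21 of 33 at or above the floor, had a median of 0.37, with 2 called higher (9.52%) and 1 lower. Over all 450 genes of the chromosome, 25.3% were called higher and 2.89% lower. None of these lists had a median at or below 0, and 83.8% of the 450 genes lay above 0. Of the receptor and tissue-restricted groups, 1 of 21 taste and olfactory receptor genes, 1 of 12 measured immune genes and 1 of 16 measured fibroblast and neural genes reached the floor.

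EGFR and its neighbours differed unequally. EGFR was 10.26 in parental and 11.95 in resistant cells, a difference of 1.69. LANCL2, the next gene at or above the floor, was 7.44 and 7.07, a difference of -0.38, and COBL, the nearest such gene on the other side, was 9.35 and 10.21. EGFR thus stood above both. SUMF2, the gene of a sulfatase-modifying factor homologue, differed by 1.40 (11.03 and 12.43) and CCT6A, a chaperonin subunit, by 1.07 (10.87 and 11.94). Of 10 genes around EGFR at or above the floor, 3 were called higher and none lower (median 0.65), close to the 25.3% called higher and the median of 0.62 of the whole chromosome.

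MET, the hepatocyte growth factor receptor gene, was 12.51 in parental and 13.78 in resistant cells, a difference of 1.27. Its neighbour CAV1, which encodes the caveolar coat protein caveolin, was 6.78 and 5.16, so that its resistant value lay under the floor and the fold is at least 1.99 lower. CAV2, beside CAV1, was 4.99 and 5.24, under the floor on both. MET and CAV1 were therefore called in opposite directions. TES, an actin-associated LIM protein gene beyond CAV2, was 10.15 and 11.05, and CAPZA2, an actin capping subunit, 9.21 and 9.89.

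In the Williams-Beuren interval, 21 of 26 genes reached the floor, 7 were called higher and none lower, and the median was 0.58. Those 7 are 33.3% of the 21, beside 25.3% for all 450 genes of the chromosome. Lower calls made up 2.89% of the 450, whose median was 0.62. The interval's median thus lay slightly below that of the whole chromosome. CLDN3, a tight junction claudin gene, was 9.48 in parental and 13.35 in resistant cells, a 14.7-fold difference, the highest of any protein-coding gene of the chromosome that reached the floor. CLDN4, its neighbour and close relative, was 8.74 and 9.13, a difference of 0.39. The claudin pair thus differed by 3.88 and 0.39 beside each other. ABHD11, on the other side of CLDN3, was 7.26 and 8.52, a difference of 1.26. RFC2, a clamp loader subunit of replication, was 7.91 and 9.74; MLXIPL, a glucose-responsive transcription factor gene, 6.19 and 7.95; LIMK1, a cofilin kinase gene, 8.39 and 9.88. These were 3 of the 7 genes called higher. BAZ1B, a chromatin remodelling subunit, was 11.98 and 13.16, while GTF2IRD1, a transcription factor gene, was below 0 at -0.50.

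**Figure D5:**
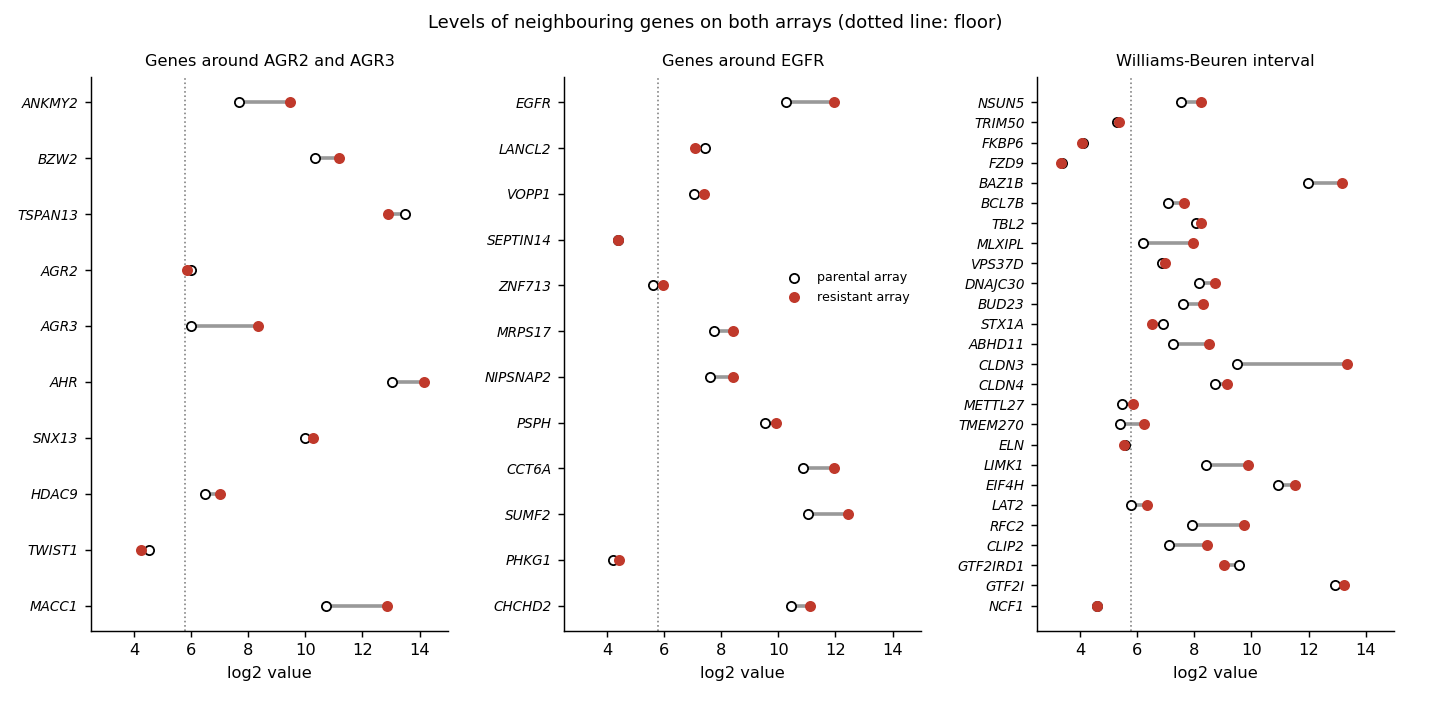
Values (log2, x axis) on the parental (open) and resistant (red) array of genes around AGR2 and AGR3, around EGFR and in the Williams-Beuren interval, in gene order from top to bottom, with the floor of 5.79 dotted. CLDN3 has the longest line, while CLDN4, AGR2 and LANCL2 lie close to their parental values.

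Against the median of its arm, 33 of 450 genes departed by at least 1.5, of which 18 were higher and 15 lower; 263 lay within 0.5. Over all chromosomes, 4.65% of genes departed higher and 4.01% lower from their own chromosome's median, and the rule used this contrast, so nothing is read from it. GSTK1 (1.59 above its arm) was just inside the threshold and DBF4 (1.36) just outside. PALS2 (-1.51) was just inside on the lower side and TMEM184A (-1.41) just outside.

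Of the actin and adhesion list, 13 of 16 measured genes reached the floor, and CLDN3 and LAMB1 were called higher and CAV1 and CALD1 lower; the 15.4% called higher compares with 25.3% over all 450 genes. NRCAM, the gene of a neuronal adhesion molecule, was 4.52 in parental and 8.01 in resistant cells, at least 4.67-fold higher against the floor. LAMB1, the nearest gene before it that reached the floor and the laminin beta-1 gene, was 8.13 and 10.65, a 5.76-fold difference. PNPLA8, on the other side of NRCAM, was 7.94 and 7.86. NRCAM and LAMB1 thus were called together and PNPLA8 was not. SEMA3C, a secreted semaphorin gene, was 9.53 and 12.62, a difference of 3.09. SEMA3E, of the same family and the next gene that reached the floor, was 5.85 and 4.35, a difference of -1.5 and at least 1.05-fold lower against the floor. SEMA3A, beside SEMA3E, was 13.82 and 14.58. The 3 semaphorin genes were thus called higher, lower and not at all. HGF, which lies between SEMA3C and SEMA3E, was under the floor at 3.84 and 4.06.

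STEAP1, a metalloreductase family membrane protein gene, was 8.32 in parental and 11.21 in resistant cells, a difference of 2.89. STEAP2, its neighbour and a close relative, was 11.64 and 11.11, a difference of -0.54. CFAP69, a cilia and flagella associated gene beyond STEAP2, was 6.92 and 9.51. STEAP2 was thus below its parental value between 2 genes called higher. PAXIP1, a gene of the DNA damage response, was 5.23 and 8.28, at least 5.63-fold higher, and INSIG1, the next gene that reached the floor, was also called. The lncRNA PAXIP1-DT, a divergent transcript, was 6.28 and 6.40. C7orf57 was 4.92 and 7.66, at least 3.65-fold higher, and the nearest genes that reached the floor were HUS1 (-0.23) and UPP1 (-0.08).

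The remaining genes departing upwards were HIPK2, a homeodomain-interacting kinase gene (2.46), MACC1, named for its link to colon cancer metastasis (2.16), OSBPL3 (2.32), IFT56 (2.31) and AGR3 (2.34) with DDC, HIBADH, GSTK1 and NCAPG2 above. AGR3, an anterior gradient protein of the disulfide isomerase family, was 5.997 in parental and 8.34 in resistant cells. AGR2, its neighbour and paralogue, was 5.99 and 5.85, a difference of -0.14. The paralogues therefore differed unequally. IFT56 and OSBPL3 were chosen after their values were seen.

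Genes departing downwards were led by AGMO, alkylglycerol monooxygenase, which cleaves ether lipids. AGMO was 10.48 in parental and 4.33 in resistant cells, at least 25.8-fold lower against the floor. The nearest genes on each side that reached the floor were VWDE at 6.63 and 4.67, a von Willebrand factor domain gene at least 1.79-fold lower, and ANKMY2 at 7.68 and 9.45, which was called higher. The lower pair was thus bordered by a gene called higher. ZNF655, a zinc finger gene, was 7.34 and 4.58, at least 2.92-fold lower, with FAM200A (-0.06) and CYP3A5 (1.18) as the nearest genes that reached the floor. UPK3B, a uroplakin gene of urothelium and mesothelium, was 13.23 and 11.32, a 3.75-fold difference.

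SAMD9, a gene of antiviral defence, was 14.34 in parental and 12.89 in resistant cells, a 2.73-fold difference. Its neighbour and paralogue SAMD9L was 12.18 and 11.85, a difference of -0.33, and CDK6 on the other side was called higher. SAMD9 and SAMD9L lay on the same side of 0, and SAMD9 alone was called. CPA4, a carboxypeptidase gene, was 6.35 and 4.82, and the nearest genes that reached the floor were TMEM209 (1.61) and CEP41 (1.04). CALD1, which encodes the actin-binding protein caldesmon, was 6.51 and 5.03, at least 1.64-fold lower. CPA4 and CALD1 resembled each other in having resistant values under the floor. AOC1, the gene of diamine oxidase, was 7.45 and 6.32, a difference of -1.13. The others, chosen after their values were seen, were TMEM140 (-1.11), ZC3HAV1L (-1.09), TRIP6 (-0.94), CDCA7L (-1.02) and PALS2 (-0.99).

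Promoter windows were found in the RefSeq table for 389 of the 450 genes. The median number of CG dinucleotides in the 250-base window was 22 in the genes called higher, also 22 in those not called and 5 in the 13 called lower; over all protein-coding promoters it was 17. Genes departing upwards, 15 of 18 matched, had a median of 17, and those departing downwards, 14 of 15 matched, 5.5. The 13 genes called lower are all among the 15 departing downwards, so the medians of 5 and 5.5 are not separate observations. TTTGAA was found in 4 of the 15 upward promoters (IFT56, LAMB1, CFAP69 and ANLN) and in none of the 14 downward promoters, beside 39 of the 389. The GC box was in 67.9% of the 389 and in 8 of 14 downward promoters, or 57.1%. The groups are few in number and their members were chosen on the contrast itself.

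The rows with the highest difference of the whole table are unnamed rows of this chromosome. The row TC07001168.hg.1 was 6.24 in parental and 16.57 in resistant cells, a difference of 10.33, the highest of all 70523 rows. The adjoining row TC07001167.hg.1 was 5.19 and 15.37, at least 763-fold higher against the floor. TC07002809.hg.1 was 5.06 and 14.84, at least 531-fold higher. These are ranks 1, 2 and 3 of the table. TC07002807.hg.1, close in number to the latter, was 4.56 and 11.20, rank 11, and row 2808 between them was 5.10 and 8.25. By row number, rows 1167 and 1168 sit between AGR3 and SNX13 on the short arm, in a block of rows that is mostly of the minus strand, and SNX13, a sorting nexin gene, was 9.99 and 10.27. The intervening rows 1165 and 1166 were under the floor on both arrays, at 4.34 and 4.34 and at 4.31 and 4.18. Within this block the high values thus stop at both edges of the pair. In gene order AHR, of the plus strand, also lies between AGR3 and SNX13. AHR was 13.05 in parental and 14.15 in resistant cells and was called higher. Rows 2807 to 2809 could not be placed on an arm.

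Among 600 unnamed rows at or above the floor, the median difference was 0.15. Of these, 71 were called higher (11.8%) and 21 lower (3.5%). Over all 24664 rows at or above the floor the shares were 8.53% higher and 9.8% lower. Unnamed rows placed by row number had medians of -0.03 on the short arm (99 rows) and 0.07 on the long arm (186 rows). Both medians lie below those of the protein-coding genes, and 5 and 13 of these rows were called higher. Rows that could not be placed, unnamed or with several symbols, were shifted more. Of these, 330 reached the floor, with a median of 0.32, and 54 were called higher and 11 lower. Row TC07000334.hg.1, chosen after its value was seen and placed between LANCL2 and CCT6A, was 8.85 in parental and 11.68 in resistant cells. The lowest unnamed rows were TC07002602.hg.1 at 7.16 and 3.43, TC07001102.hg.1 at 7.18 and 5.00 and TC07002985.hg.1 at 9.99 and 7.82. The last of these alone was measured at or above the floor on both arrays. The 55 rows with several symbols that reached the floor had a median of 0.33, with 45 above 0 and 9 below. Among them, 2 were called higher and 1 lower. The row annotated jointly to DPY19L1 and MIR548N was 7.95 in parental and 10.56 in resistant cells. That of OR2A7 and ARHGEF34P was 7.24 and 8.26. The row called lower, at 8.34 and 5.50, was annotated jointly to ERV3-1 and ZNF117. These are a retroviral envelope and a zinc finger gene that cannot be told apart.

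Non-coding rows at or above the floor were shifted less than coding genes. The 12 lncRNA rows had a median of 0.38 and the 53 pseudogene rows 0.11. LINC00997, the sole lncRNA called, was 6.98 in parental and 8.33 in resistant cells. The 5 snoRNA rows had a median of 0.24, and SNORD93 alone was called, at 10.29 and 11.32. The 4 Y RNA genes, which encode small cytoplasmic RNAs bound by the Ro60 protein, lay below 0: RNY1 was 14.95 and 13.35, RNY3 was 16.45 and 15.79, RNY5 was 7.61 and 6.73, and RNY4 was 7.26 and 7.02. RNY1 alone was called, lower by 1.60. The Y RNA genes have many near-identical copies in the genome, so the rows are uncertain.

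MicroRNA rows were little shifted; they report the gene's precursor region and not the mature molecule. Of 51 rows, 17 reached the floor, their median was 0.22 and none was called by size. MIR25, which lies inside MCM7, was 5.19 in parental and 5.93 in resistant cells, a difference of 0.75, and MIR93 beside it was 4.38 and 4.70, under the floor. MIR4653 differed by 0.67 (8.27 and 8.95) and MIR29A by 0.53 (7.65 and 8.18). The lowest microRNA row at or above the floor was MIR4285, at -0.29 (7.60 and 7.31). The mature sequences of these are given with the seed, bases 2 to 8, in capitals, from RefSeq on GRCh38.p14; the seeds differ between the genes shown.
hsa-miR-25-3p (chr7:100093571-100093592, minus strand): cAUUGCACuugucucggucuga
hsa-miR-93-5p (chr7:100093815-100093837, minus strand): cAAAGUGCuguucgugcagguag
hsa-miR-4653-3p (chr7:101159524-101159546, plus strand): uGGAGUUAaggguugcuuggaga
hsa-miR-29a-3p (chr7:130876748-130876769, minus strand): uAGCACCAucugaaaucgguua
hsa-miR-4285 (chr7:102293113-102293130, plus strand): gCGGCGAGuccgacucau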

How the data were processed

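Total RNA of 2 cultures was labelled with biotin and hybridised to Affymetrix Human Transcriptome Array 2.0 arrays, per the labels. The deposited table holds the authors' log2 values of 1 parental and 1 resistant array; per the submitters' processing notes they come from Affymetrix Expression Console. Its algorithm and version, the annotation and the genome build were not given in the sources used here; neither was the log base, which was taken as log2. Values above 16 occur, so a difference of 1 need not be exactly 2-fold in brightness. The column medians were 4.76 on both arrays.

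Rows were named by the platform annotation, and symbols were updated through the NCBI gene table for GRCh38.p14 (934 through the gene identifier, 115 through the symbol and 15 through a synonym); 5 rows whose gene lies on another chromosome there were not counted as chromosome 7 genes in gene order. Where a gene had several rows, the one with the highest mean was used. The gene table gave order, strand and arms, split at the largest gap between gene starts. Unnamed rows were placed on an arm only between named rows of 1 arm. No coordinates of rows are printed, because their build is unknown.

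No test or error can be had from 1 array in each group. The members and lists were chosen with earlier results of these data known. Named genes were the 10 highest and 10 lowest called, up to 4 called members of each list, a short list of known genes, members of runs and extreme windows, their direct neighbours, and the most different unnamed and non-coding rows. Alternatives covered scaling (median, quantile, loess with span 0.3), floor, threshold, window and row summary. Python 3.11.15, pandas 2.3.3, numpy 2.4.6, scipy 1.17.1, statsmodels 0.14.6 and matplotlib 3.10.9 were used.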

Additional observations from a re-analysis of the deposited data

How the results depend on the processing

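No paired analysis was possible because each group had 1 array. The column medians were already 4.76 on both arrays, so median centring could hardly move any value. Median centring, quantile normalization and loess centring moved none of the 132 gene values checked, shifted the median of all genes by less than 0.1, and shared all 114 calls of higher genes and 13, 12 and 12 of the 13 of lower genes, CDCA7L being lost. Without a floor the medians were 0.23 for the chromosome, 0.20 for the short and 0.25 for the long arm, the lowest short-arm window was -0.10, the highest long-arm window 0.76, and 32 genes departed higher and 9 lower. With the floor at the 75th percentile they were 0.78, 0.68 and 0.81, lower calls numbered 4, the lowest windows were 0.27 and 0.32, the highest long-arm window 1.26, and 11 genes departed higher and 5 lower. Over every row, named or not, the medians were 0.32, 0.26 and 0.36, with 191 higher and 37 lower calls, the latter counts being an alternative chosen after seeing the data. At 1.5-fold 233 genes were called higher; at 4-fold 19 were higher and 2 lower. Windows of 9 genes ranged from -0.15 to 1.26 on the short arm and down to -0.16 on the long arm; windows of 31 genes ranged from 0.28 to 0.85 and from 0.35 to 0.89. A departure of at least 1 gave 39 higher and 28 lower, and of at least 2 gave 7 and 9. Of the 450 coding genes that reached the floor, 83.8% lay above 0, so a list median above 0 is frequent on this chromosome. For the 14 lists with 5 or more members at or above the floor, the epithelial markers left out, every median taken under an alternative was above 0. With the floor at the 75th percentile only 12 lists kept 5 such members, and the others had no median there. Of the 68 medians taken, 17 moved. The cause of these moves was not tested. The number of arrays limits every value, and genes with a value under the floor have only a bound on their fold.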

Other observations

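On chromosome 7, 93 rows had both values equal to those of another row of the table, 76 of them at or above the floor and 2 called, so such rows are not separate measurements. The value was the same on both arrays in 81 rows, of which 4 reached the floor. In 11 protein-coding genes with 2 rows, the rows differed in level: CPSF4, a subunit of the polyadenylation complex, differed by 0.93 in its higher row and 0.27 in its lower one, and ZNRF2, a ubiquitin ligase gene, by -0.27 and 0.05.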
